A study of Homo sapiens with 6 samples.

Results

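The HSP70 family of chaperones was followed in C4-2B MDVR cells, a human prostate cancer line derived from C4-2B by selection for growth in the androgen receptor antagonist enzalutamide. The 10 genes were taken by name: HSPA5, HSPA13 and HYOU1 of the endoplasmic reticulum, HSPA9 of the mitochondrion, and HSPA8, HSPA1A, HSPA1B, HSPA4, HSPA4L and HSPH1 of the cytosol. They are 10 of the 58735 genes in the table, and 9 of them were among the 12960 genes that reached a mean of 1 FPKM (fragments per kilobase of exon, scaled for library depth) over all libraries. HSPA1A was the member below that level. The 6 libraries were RNA-seq of cells held for 2 days in DMSO (the control), in 20 uM enzalutamide, in PTUPB at 10 or 20 uM, or in either dose of PTUPB with enzalutamide. PTUPB is an inhibitor of both cyclooxygenase-2 and soluble epoxide hydrolase. Each group was 1 library of this one line, so no value has a replicate, and the labels give no enzalutamide dose for the combinations, which was taken as equal to that of the single agent.

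HSP70 proteins bind exposed hydrophobic stretches of unfolded proteins and release them in a cycle driven by ATP. J proteins start the cycle by stimulating ATP hydrolysis, and exchange factors end it by releasing ADP. Each compartment has its own member. HSPA5 (BiP) serves the reticulum, where it also holds the sensors of the unfolded protein response inactive, and its gene is a classical target of that response. HSPA8 is the constitutive cytosolic member, HSPA1A and HSPA1B are the copies induced by heat, and HSPA9 draws proteins into the mitochondrion. HYOU1 in the reticulum and HSPA4, HSPA4L and HSPH1 in the cytosol belong to the large HSP110 branch, which works mainly as exchange factors for the smaller members.

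The DNA before the start site was read for all 10 members from RefSeq (GRCh38.p14), which gave 12 windows of 250 upstream bases, HSPA4L having 3 of them. Both strands were searched for 5 motifs, and the share of all 35116 RefSeq windows of that length holding each is given with it. The windows of HSPA5 and HYOU1 and the matched sites of HSPA8 are printed to show which motif each holds. These 3 genes were picked with their movements, described later, already known. HSPA13 and HSPA9, which also rose, hold no exact match to any of the 5 motifs. Capitals mark the motifs. The HSPA5 window (chr9:125241344-125241593, minus strand) holds an ERSE, the endoplasmic reticulum stress element (CCAAT, 9 bases of any kind, CCACG), at 66 to 48 bases upstream. That of HYOU1 (chr11:119057206-119057455, minus strand) holds ERSE-II (ATTGG, 1 base of any kind, CCACG) on the opposite strand at 79 to 69 and at 185 to 175 bases upstream. The farther of them overlaps a match to the ATF6 site (TGACGTGG) at 188 to 181.
HSPA5: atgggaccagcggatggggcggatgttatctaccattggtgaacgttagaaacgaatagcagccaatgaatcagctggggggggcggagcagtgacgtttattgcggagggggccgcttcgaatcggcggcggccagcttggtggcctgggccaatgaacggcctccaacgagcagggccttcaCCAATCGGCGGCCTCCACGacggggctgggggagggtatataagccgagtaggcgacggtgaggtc
HYOU1: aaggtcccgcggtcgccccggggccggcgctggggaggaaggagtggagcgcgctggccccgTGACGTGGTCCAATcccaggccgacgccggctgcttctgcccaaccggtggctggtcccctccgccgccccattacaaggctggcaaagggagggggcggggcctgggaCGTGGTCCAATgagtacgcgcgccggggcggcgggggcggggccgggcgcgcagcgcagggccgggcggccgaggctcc
HSPA8, far site: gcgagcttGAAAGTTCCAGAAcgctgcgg
HSPA8, near site: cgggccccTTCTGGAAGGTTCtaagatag
The HSPA8 sites are heat shock elements (GAA, 2 bases of any kind, TTC, 2 bases of any kind, GAA), shown with 8 bases on each side. The far one (chr11:123062346-123062374, minus strand) lies 230 to 218 bases upstream and reads on the same strand as the gene. The near one (chr11:123062171-123062199) lies 55 to 43 bases upstream and reads on the opposite strand. Parts of that window are exons of other HSPA8 transcripts in GENCODE 29. The windows of HSPA9 and HSPA13, and those of HSPA4L other than the farthest upstream, also lie inside the GENCODE 29 span of the gene. The windows of HSPA4, HSPA1A and HSPA1B overlap the start of that span. ERSE was found in 0.0740% of all windows, ERSE-II in 0.0513%, the ATF6 site in 0.612% and the heat shock element in 0.441%. The fifth motif, the CARE element bound by ATF4 and its partners (TGATG, 1 base of any kind, AA), was found in 3.14% of windows and among members in 1 of the 3 HSPA4L windows, at 157 to 150 bases upstream. No exact match to any of the 5 motifs was found in the windows of HSPA13, HSPA9, HSPA1A, HSPA1B, HSPA4 or HSPH1. Only exact matches were counted, so a site with 1 base changed was missed. The windows of HSPA1A and HSPA1B both hold gaatattcccgac, which differs from the heat shock element in its last base. A match is a run of letters and not a measured binding site.

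Libraries held 20156523 to 29450436 fragments assigned to genes, with 27337933 in DMSO, 22368705 at 20 uM PTUPB and 20156523 at 20 uM with enzalutamide, so both 20 uM libraries were the shallowest. All 9 luminal prostate markers examined reached 1 FPKM, and their summed level was 1069 FPKM in the control and 330 and 339 FPKM at 20 uM PTUPB without and with enzalutamide. Basal (0 of 3 markers at 1 FPKM, highest sum 0.522), blood (0 of 5, 0.351) and endothelial (0 of 4, 0.595) markers stayed near 0, and of 5 stromal markers COL1A1 alone reached 1 FPKM (stromal sum 2.39 to 6.52). The part of the lower luminal markers in the results that follow was not tested. In bulk RNA, fewer cells with a transcript and less of it per cell cannot be told apart.

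In the control, HSPA8 was the most abundant member at 436 FPKM, followed by HSPA5 at 294. HSPA4 (49.3), HSPA9 (48.4) and HYOU1 (42.8) came next, then HSPA1B (26.5), HSPA13 (26.1), HSPH1 (18.2), HSPA4L (4.13) and HSPA1A (0.350). With 1 library, neighbours in this order such as HSPA4 and HSPA9, or HSPA1B and HSPA13, cannot be separated by a spread. At 20 uM PTUPB with enzalutamide the order ran HSPA5, HYOU1, HSPA13, HSPA8, HSPA9, HSPA4, HSPA1B, HSPA4L, HSPH1 and HSPA1A, so that all 3 reticulum members stood above every cytosolic one there. At 20 uM PTUPB alone this did not hold: HSPA8 at 160 FPKM stood above HSPA13 at 122 and level with HYOU1 at 161.

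**Figure D1:**
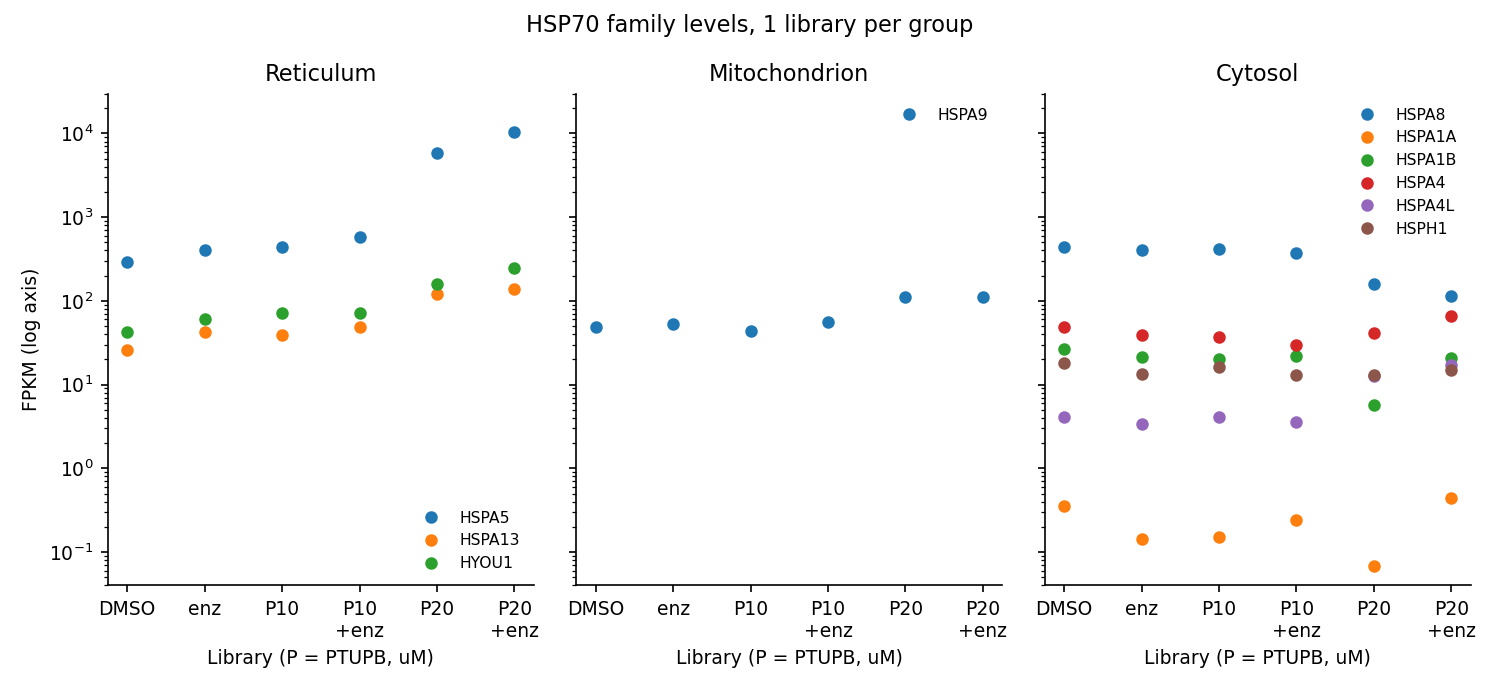
FPKM of each member (log axis) in each of the 6 libraries, in panels by compartment; each point is 1 library, P is PTUPB with its dose in uM and enz is enzalutamide. The reticulum panel steps up at 20 uM, HSPA5 to 5919 and 10392 FPKM, while HSPA8 in the cytosol panel steps down to 160 and 114.

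At 20 uM PTUPB the most abundant members of reticulum and cytosol, HSPA5 and HSPA8, moved in opposite directions. All 3 reticulum members and the mitochondrial one rose, the constitutive cytosolic HSPA8 fell, and among the other cytosolic members HSPA4L rose while HSPA1B, HSPA4 and HSPH1 did not pass the test. The count was therefore 5 risers and 1 faller of the 9 members tested, where 15.9% of all tested genes rose and 18.2% fell. The members were chosen with earlier results of these data known, so no count of members here tests an excess over all genes. The test was limma on log2(FPKM + 1) over all 12960 genes, with PTUPB at 3 levels and enzalutamide as additive terms and a Benjamini-Hochberg adjusted p under 0.05. It has 2 residual degrees of freedom, and its error is the departure from additivity between libraries, not a spread between replicates. Read pair by pair with no test, at a log2 difference of 1 or more, 5 members were higher and 2 lower (HSPA8 and HSPA1B) at 20 uM than in DMSO, where 9.47% of genes were higher and 12.7% lower. Under enzalutamide, 5 were higher and 1 lower, where 13.5% of genes were higher and 15.8% lower. The members called were the same under limma-voom, without the intensity trend, with pseudocount 0.1, in TPM and scaled by total fragments. Without the DMSO library the fitted differences were 4.58 for HSPA5, 1.72 for HSPA13, 1.90 for HSPA4L and -1.74 for HSPA8. Without the enzalutamide library they were 4.43, 2.16, 1.56 and -1.51. In both fits HYOU1, HSPA9 and HSPA8 lost their call, and HSPA4L lost it in the second. Far fewer of all genes passed in these fits as well, so the loss is not particular to the members.

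**Figure D2:**
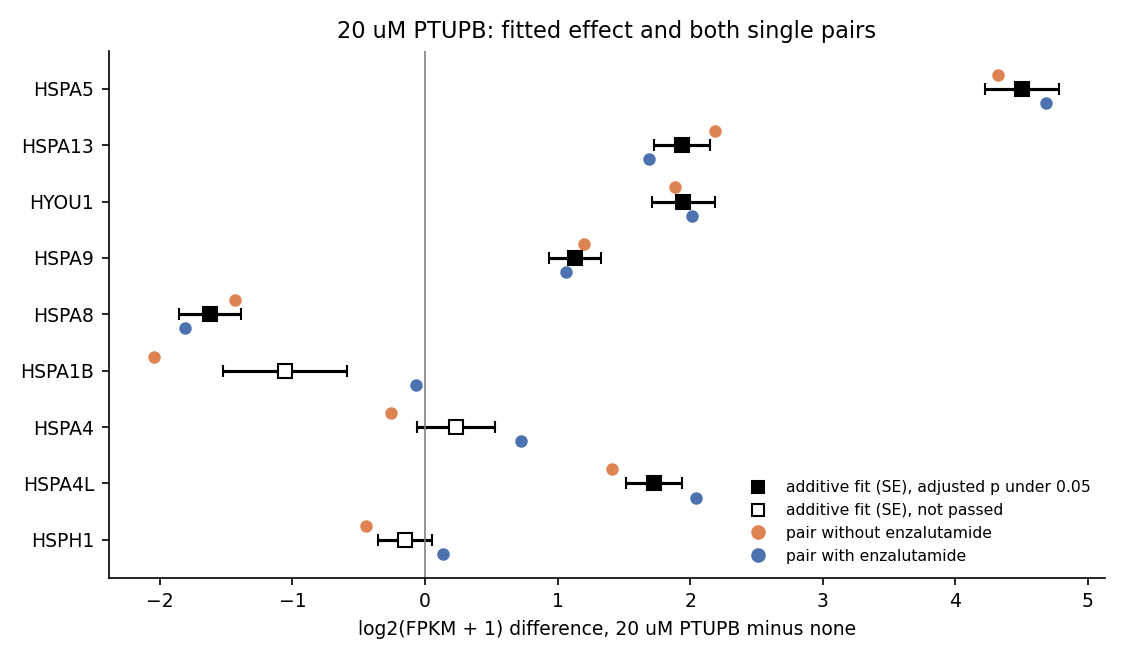
Log2(FPKM + 1) difference of each tested member at 20 uM PTUPB against none: squares give the additive limma fit with its standard error (filled where adjusted p was under 0.05), and circles give the single library pairs without and with enzalutamide. Among the squares HSPA5 lies farthest right at 4.51 and HSPA8 farthest left at -1.62, and the pairs of HSPA1B stand far apart at -2.04 and -0.07.

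HSPA5, the reticulum's general chaperone (ENSG00000044574, GRCh38 chr9:125234853-125241330, minus strand), was at 294 FPKM in DMSO, 403 with enzalutamide, 440 at 10 uM PTUPB, 574 with both, 5919 at 20 uM PTUPB and 10392 at 20 uM with enzalutamide. Both 20 uM libraries stood far above the other 4, and the control was the lowest. The share of all genes whose 20 uM pair lies apart from the other libraries was not counted. Such a split is therefore not shown to be particular to this member or to those below. Of all fragments, HSPA5 took 0.126% (95% Wilson interval 0.124% to 0.127%) in DMSO, 2.44% (2.44% to 2.45%) at 20 uM and 3.70% (3.69% to 3.70%) at 20 uM with enzalutamide, intervals that cover counting error only. Its rank among all genes by FPKM moved from 71 in DMSO to 36 in the 10 uM combination, 3 at 20 uM and 2 at 20 uM with enzalutamide. The fitted difference at 20 uM was 4.51 on the log2 scale (limma SE 0.28, adjusted p = 0.0023), and the pairs gave 20.1-fold without and 25.8-fold with enzalutamide. From 10 to 20 uM the fitted difference was 3.96 (SE 0.28, adjusted p = 0.0025), so most of it lay between those doses. With no filter on level, the adjusted p at 20 uM was 0.055 (SE 0.69).

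HYOU1, the large HSP110-type exchange factor of the reticulum (ENSG00000149428, chr11:119044189-119057202, minus strand), was at 42.8 FPKM in DMSO, 60.9 with enzalutamide, 72.1 at 10 uM PTUPB, 71.3 with both, 161 at 20 uM and 249 at 20 uM with enzalutamide. As with HSPA5, the 20 uM libraries lay above all others. The fitted difference at 20 uM was 1.95 (SE 0.24, adjusted p = 0.0052; 3.75-fold and 4.09-fold in the pairs). It missed the threshold without the DMSO library (adjusted p = 0.051) and without the enzalutamide library (0.061), at 1.85 and 2.04. Relative to the chaperone it serves, HYOU1 stood at 12.4% to 16.4% of the HSPA5 level in the 4 libraries without 20 uM PTUPB and at 2.72% and 2.40% in those with it.

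HSPA13, a small microsome-associated member that lacks the substrate-binding domain (ENSG00000155304, chr21:14371115-14383484, minus strand), was at 26.1 FPKM in DMSO, 42.5 with enzalutamide, 39.1 at 10 uM, 48.7 with both, 122 at 20 uM and 139 at 20 uM with enzalutamide. The 20 uM libraries were again the highest pair, and the control was the lowest. The fitted difference was 1.94 (SE 0.21, adjusted p = 0.0042), and it passed under all 12 alternatives, the highest adjusted p being 0.047. The rise from 10 to 20 uM was 1.56 (adjusted p = 0.0076). For that step, HYOU1 gave 1.47 (adjusted p = 0.011).

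HSPA9, mortalin of the mitochondrial matrix (ENSG00000113013, chr5:138553756-138575724, minus strand), was at 48.4 FPKM in DMSO, 53.4 with enzalutamide, 44.2 at 10 uM, 55.2 with both, and 112 and 113 at 20 uM without and with enzalutamide. The 4 lower libraries spanned 44.2 to 55.2, and the 20 uM pair was nearly equal. The fitted difference was 1.13 (SE 0.20, adjusted p = 0.011), against 1.94 to 4.51 for the reticulum members, a difference that was not tested. It missed the threshold without the DMSO library (adjusted p = 0.095) and without the enzalutamide library (0.13), with fitted values of 1.14 and 1.12.

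HSPA8, the constitutive cytosolic HSC70 (ENSG00000109971, chr11:123057489-123063230, minus strand), was at 436 FPKM in DMSO, 402 with enzalutamide, 422 at 10 uM, 369 with both, 160 at 20 uM and 114 at 20 uM with enzalutamide. The 4 libraries without 20 uM PTUPB lay at 369 to 436 FPKM and the 20 uM pair below them. In rank by FPKM it went from 47 in DMSO to 158 and 314. The fitted difference was -1.62 (SE 0.23, adjusted p = 0.0073), or 2.72-fold lower without and 3.53-fold lower with enzalutamide. From 10 to 20 uM it was -1.54 (adjusted p = 0.0096). The call was lost without the DMSO library (-1.74, adjusted p = 0.052), without the enzalutamide library (-1.51, adjusted p = 0.088) and with no filter on level (adjusted p = 0.061).

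HSPA4L, a cytosolic exchange factor of the HSP110 branch (ENSG00000164070, chr4:127781821-127840733, plus strand), was the cytosolic member that rose. It was at 4.13 FPKM in DMSO, 3.39 with enzalutamide, 4.15 at 10 uM, 3.56 with both, 12.6 at 20 uM and 17.1 at 20 uM with enzalutamide. The 4 lower libraries differed by little and the 20 uM pair stood clear of them. The fitted difference was 1.73 (SE 0.21, adjusted p = 0.0054; 3.06-fold and 5.04-fold in the pairs), and without the enzalutamide library it was 1.56 (adjusted p = 0.072). Its cytosolic relatives HSPA4 and HSPH1 did not pass. HSPA4 (ENSG00000170606, chr5:133051962-133106449, plus strand) was at 49.3, 39.5, 37.1 and 29.8 FPKM in DMSO, enzalutamide, 10 uM and the 10 uM combination, and at 41.1 and 66.1 at 20 uM without and with enzalutamide. The 20 uM value without enzalutamide lay inside the range of the lower doses and that with enzalutamide above it, and the fitted difference was 0.23 (SE 0.30, adjusted p = 0.57). Without the 20 uM PTUPB library HSPA4 passed at 0.73 (adjusted p = 0.032). HSPH1, or HSP105 (ENSG00000120694, chr13:31134974-31162388, minus strand), varied least, 1.39-fold between its lowest and highest library, at 18.2, 13.4, 16.2 and 13.1 FPKM in the first 4 libraries and 13.2 and 14.8 at 20 uM without and with enzalutamide. Its fitted difference was -0.15 (SE 0.21, adjusted p = 0.59).

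The heat-inducible pair HSPA1B (ENSG00000204388, chr6:31827735-31830255, plus strand) and HSPA1A (ENSG00000204389, chr6:31815464-31817946, plus strand) lie side by side and are nearly identical. Of the 100-base stretches in their transcripts, 67.3% of those of HSPA1A also occur in HSPA1B, and 68.8% of those of HSPA1B also occur in HSPA1A, so how reads were divided between them is uncertain. HSPA1B was at 26.5 FPKM in DMSO, 21.5 with enzalutamide, 20.0 at 10 uM, 22.1 with both, 5.68 at 20 uM and 20.5 at 20 uM with enzalutamide. One library, 20 uM PTUPB alone, stood below the other 5. HSPA1A was at 0.350, 0.143, 0.150, 0.244, 0.0682 and 0.439 FPKM in the same order, from 4 to 26 fragments, and its mean lay below the level filter. In the alternative with no filter its fitted difference at 20 uM was -0.0026 (SE 0.19, limma adjusted p = 1.0), on a scale where the pseudocount of 1 exceeds its level. Their sum, which does not depend on the division between them, followed HSPA1B at 26.9, 21.7, 20.2, 22.4, 5.74 and 21.0 FPKM. The fitted difference of HSPA1B at 20 uM was -1.06 (SE 0.47, adjusted p = 0.13). Without the 20 uM combination library it fell by 1.94 (adjusted p = 0.010), and without the 20 uM PTUPB library the fitted difference was -0.17 (adjusted p = 0.53), since each of these rests on the other 20 uM library.

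For the other members, sharing of sequence was small: 5.25% of the 100-base stretches of HYOU1, 4.55% of HSPA4L, 2.28% of HSPA5 and 0.0652% of HSPA9 also occur in transcripts of another gene, and none of HSPA13, HSPA8, HSPA4 and HSPH1. The HSPA5 pseudogene HSPA5P1 had at most 45 fragments, and genes overlapping a member had at most 21.

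The family's make-up was read as each compartment's share of the summed FPKM of the 10 members, a ratio within a library that does not depend on scaling between libraries. The reticulum share was 38.4% in DMSO, 48.7% with enzalutamide, 50.3% at 10 uM PTUPB, 58.5% with both, 94.7% at 20 uM and 96.9% at 20 uM with enzalutamide. The cytosolic share was 56.5%, 46.1%, 45.7%, 36.9%, 3.56% and 2.09% in that order. HSPA5 alone made up 31.1% of the family in DMSO and 90.4% and 93.4% at 20 uM without and with enzalutamide. The ratio of HSPA5 to HSPA8 was 0.675 in DMSO, 1.00 with enzalutamide, 1.04 at 10 uM, 1.56 with both, 36.9 at 20 uM and 91.3 at 20 uM with enzalutamide. Every library with an agent thus had a higher ratio than the control. The sum of the family was 946 FPKM in DMSO, 1095 at 10 uM, 6547 at 20 uM and 11126 at 20 uM with enzalutamide. In the cytosol the sum was 535 FPKM in DMSO and 233.1 and 232.8 at 20 uM. Leaving out HSPA8, it was 98.6 in DMSO, 68.9 to 78.0 in the other libraries at 0 or 10 uM PTUPB, 72.6 at 20 uM and 119 at 20 uM with enzalutamide. HSPA8 itself went from 436 FPKM in DMSO to 160 and 114. Without HSPA5, the reticulum share of the rest was 10.6% in DMSO and 45.0% and 52.9% at 20 uM. These shares have no test.

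**Figure D3:**
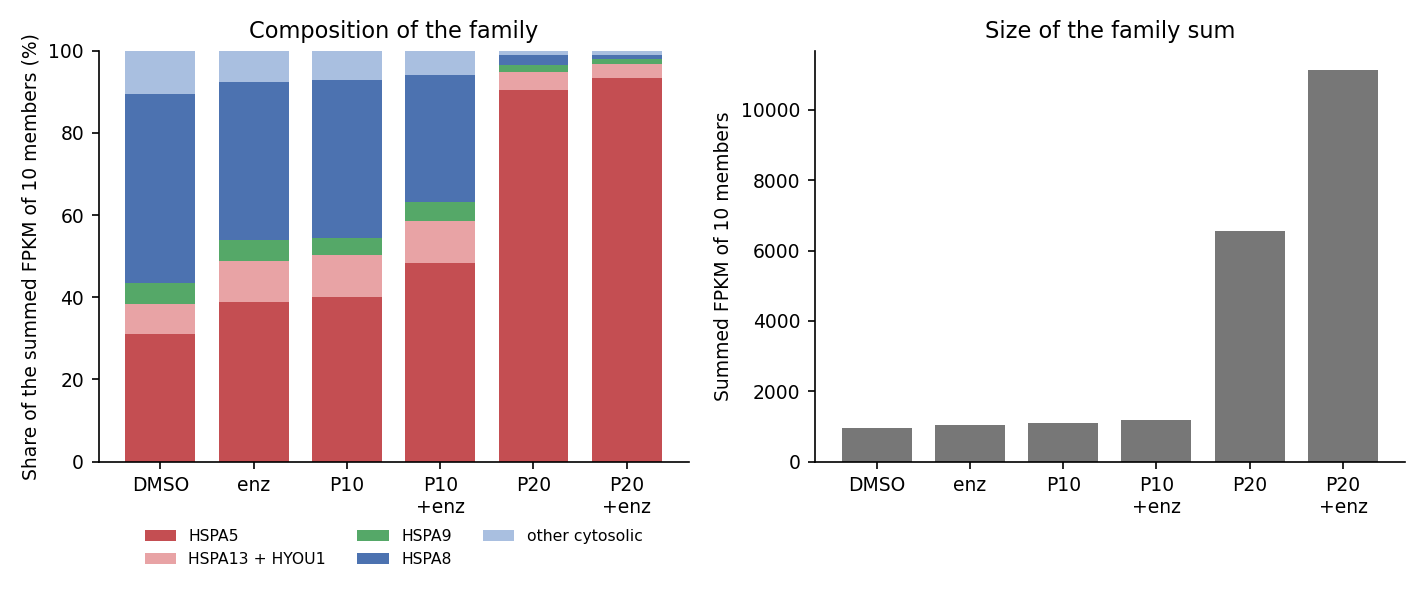
Left, share of the summed FPKM of the 10 members held by HSPA5, by HSPA13 with HYOU1, by HSPA9, by HSPA8 and by the other cytosolic members in each library (stacked bars, percent); right, the summed FPKM itself. At 20 uM PTUPB the HSPA5 segment fills 90.4% and 93.4% of the bar, and the sum stands at 6547 and 11126 FPKM against 946 in DMSO.

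At 10 uM PTUPB none of the members passed limma, nor did any of the 12960 genes (0.0% of them; 480 had an unadjusted p under 0.05, and limma-voom called 0). The largest fitted differences in size were those of HSPA5 at 0.54 (SE 0.28), HYOU1 at 0.48 (SE 0.24), the cytosolic HSPA4 at -0.40 (SE 0.30) and HSPA13 at 0.38 (SE 0.21), each with an adjusted p of 0.98. In the pair without enzalutamide the differences of HSPA5, HYOU1 and HSPA13 were 0.58, 0.74 and 0.57 on the log2 scale, and in the pair with it 0.51, 0.22 and 0.19. No member reached log2 1 in either pair, where 2.39% and 3.81% of genes did. From 10 to 20 uM, 5 members rose (HSPA5, HSPA4L, HSPA13, HYOU1 and HSPA9) and 1 fell (HSPA8), where 16.5% of all genes rose and 16.9% fell. HSPA4L gave 1.70 for this step (SE 0.21, adjusted p = 0.0065) and HSPA9 gave 1.17 (SE 0.20, adjusted p = 0.011). Fits without either 10 uM library passed fewer of all genes as well as fewer rising members. Without the 10 uM combination library 2 rose (HSPA5 and HSPA4L) and HSPA8 fell, and without the 10 uM PTUPB library HSPA9 did not pass (adjusted p = 0.095). Without the 20 uM PTUPB library HSPA4 rose too, and without the 20 uM combination library HSPA1B fell too.

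For enzalutamide, no member passed in the additive fit, nor did any gene (0.0%; 626 of 12960 had an unadjusted p under 0.05, and limma-voom called 1). The fitted differences of HSPA5 (0.55, SE 0.23), HSPA1B (0.51, SE 0.38), HSPA13 (0.39, SE 0.17), HYOU1 (0.37, SE 0.19) and HSPA8 (-0.27, SE 0.19) had an adjusted p of 0.92 each. Enzalutamide alone against DMSO gave 1.37-fold for HSPA5, 1.63-fold for HSPA13 and 1.42-fold for HYOU1, and no member reached log2 1 (2.69% of genes did). Added to 10 uM PTUPB it gave 1.30-fold for HSPA5, and again no member reached log2 1 (3.42% of genes). Added to 20 uM it gave 1.76-fold for HSPA5, 1.55-fold for HYOU1, 1.14-fold for HSPA13, 1.00-fold for HSPA9, 1.61-fold for HSPA4 and 1.35-fold for HSPA4L, while HSPA8 was 1.41-fold lower. HSPA1B, at 3.62-fold, was the 1 member that reached log2 1 there, where 6.74% of genes did. An interaction term at 20 uM, added after the data were seen and leaving 1 residual degree of freedom, was largest for HSPA1B (1.77, SE 0.27, adjusted p = 0.17) and HSPA4 (0.98, SE 0.22, adjusted p = 0.17). It called 0 of 12960 genes, 2722 having an unadjusted p under 0.05, so no member was shown to respond to PTUPB differently with enzalutamide.

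Lists of genes that work with the family were read at 20 uM from the same limma fit, in which the median of all genes was 0.0045 on the log2 scale, 15.9% of all genes rose and 18.2% fell. The lists, like the members, were chosen with earlier results of these data known, so their counts do not test an excess over all genes. Without the DMSO library, without the enzalutamide library or with no filter on level, fewer of all genes passed too. Lower list counts in those fits are therefore not particular to the lists. Of 11 J proteins and exchange factors of the reticulum, 5 rose, 0 fell and 6 did not pass (median 0.74). DNAJB9, a J protein that recruits HSPA5 to the sensor IRE1, was at 10.6 FPKM in DMSO and 14.1 with enzalutamide against 93.6 and 156 at 20 uM (3.20, SE 0.19, adjusted p = 0.0021). DNAJC1, a membrane J protein (2.17, SE 0.27), DNAJC3, an inhibitor of the eIF2 alpha kinase PERK (1.40, SE 0.20), and DNAJB11, which delivers substrates to HSPA5 (1.02, SE 0.24), rose with it. The fifth was the exchange factor SIL1 (0.74, SE 0.19, adjusted p = 0.034). Without the DMSO library 2 rose, and without the enzalutamide library 1. In TPM 8 rose.

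Of 15 genes for sensors and factors of the unfolded protein response and other reticulum chaperones, 6 rose, 0 fell and 9 did not pass (median 0.78). DDIT3, the stress transcription factor CHOP, was at 16.0 FPKM in DMSO and 23.5 with enzalutamide against 359 and 440 at 20 uM (4.29, SE 0.20, adjusted p = 0.0019). ERN1, the gene of IRE1 (1.76, SE 0.21), MANF, a secreted partner of HSPA5 (1.35, SE 0.34), ATF6 (1.07, SE 0.29), the gene of the sensor PERK, EIF2AK3 (1.06, SE 0.22), and XBP1 (0.89, SE 0.24) also rose, while ATF4 did not pass (0.39, SE 0.22, adjusted p = 0.22). XBP1 and ATF4 are regulated through splicing and translation, which gene-level FPKM do not read. HSP90B1, an abundant partner chaperone of HSPA5, stood at 391 and 493 FPKM without PTUPB and at 604 and 1124 at 20 uM, and did not pass (0.91, SE 0.35, adjusted p = 0.099). HSP90B1 was chosen for mention after its values were seen. The remaining genes that did not pass went both ways. PDIA4 (-0.26) and ATF6B (-0.58) had fitted differences below 0. Those of PDIA6 (0.20), CALR (0.40), CRELD2 (0.53), PDIA3 (0.66) and CANX (0.78) lay above 0. Without the DMSO library 2 genes of this list rose, without the enzalutamide library 1, with no filter on level 2, and in TPM 9.

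Of the 10 mitochondrial partners 9 could be tested, of which 1 rose and 1 fell (median 0.08), close to the 15.9% and 18.2% of all genes that did so. GRPEL2, an exchange factor for HSPA9, rose by 1.25 (SE 0.18, adjusted p = 0.0074), from 11.2 and 12.2 FPKM to 25.2 and 33.9. HSPE1, the lid of the mitochondrial chaperonin, fell by 1.92 (SE 0.20, adjusted p = 0.0039), from 27.8 and 27.2 FPKM to 5.95 and 7.09. HSCB, the J protein of iron-sulphur cluster assembly (0.78, adjusted p = 0.12), and the import motor subunit TIMM44 (0.41, adjusted p = 0.25) did not pass. Without the enzalutamide library 0 of these rose or fell.

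Of the 18 cytosolic J proteins and exchange factors 17 could be tested, and 5 rose, 0 fell and 12 did not pass (median 0.41). DNAJB4 (1.94, SE 0.20, adjusted p = 0.0039), the exchange factor HSPBP1 (1.32, SE 0.20), DNAJB5 (1.31, SE 0.29) and DNAJB2 (1.25, SE 0.18) rose, and the fifth was BAG2 (0.90, SE 0.17, adjusted p = 0.014). Their levels were low to moderate, DNAJB4 going from 1.79 and 2.11 FPKM to 11.3 and 9.37. The list's median was -0.04 without the 20 uM combination library and 0.79 without the 20 uM PTUPB library. A median above 0 thus rested on the combination library. The fitted differences of the 5 risers stayed above 0 in all 12 alternatives, the lowest being 0.79 for BAG2 and 1.70 for DNAJB4. With no filter on level 3 of the list rose. Without the DMSO library 1 of the list rose, likewise without the enzalutamide library, and without the 20 uM PTUPB library 10 did.

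The 12 heat shock factors and other heat shock genes had a median of -0.36, with 2 risers, 2 fallers and 8 that missed the threshold, again close to the 15.9% and 18.2% of all genes. The small heat shock protein gene HSPB1 fell by 2.49 (SE 0.47, adjusted p = 0.014), from 312 and 229 FPKM to 28.7 and 76.2, and HSF4 fell by 1.07 (SE 0.19, adjusted p = 0.013). HSPB8, a small heat shock protein that works with the co-chaperone BAG3, rose by 2.40 (SE 0.28, adjusted p = 0.0047), from 0.702 and 0.730 to 5.52 and 11.6 FPKM, and CRYAB rose by 1.00 (SE 0.26, adjusted p = 0.033). At 10 uM without and with enzalutamide HSPB8 was at 0.627 and 1.59 FPKM. Its mean thus reached 1 FPKM only through the 20 uM libraries, so its place among the risers is not independent of the filter. HSF1, the main heat shock factor, did not pass (0.51, SE 0.22, adjusted p = 0.13). Of the others that did not pass, HSP90AB1 (-0.86, SE 0.27, adjusted p = 0.054) and HSP90AA1 (-0.81, SE 0.27, adjusted p = 0.065) had fitted differences below 0. So did FKBP4 (-0.50), CHORDC1 (-0.44) and AHSA1 (-0.29). Those of CACYBP (0.43) and HSF2 (0.52) lay above 0. HSP90AB1 stood at 728 and 675 FPKM without PTUPB and at 341 and 433 at 20 uM. Without the DMSO library 1 rose and 0 fell, likewise with no filter on level, and without the enzalutamide library 0 rose or fell. In TPM and scaled by total fragments 2 rose and 4 fell, without the 20 uM combination library 1 rose and 6 fell, and without the 20 uM PTUPB library 4 rose and 2 fell, with a median of 0.12. Of 7 further genes of the HSP70 superfamily 3 could be tested, and none passed: HSPA1L (-0.11, SE 0.27), HSPA12A (-0.12, SE 0.19) and HSPA14, a ribosome-associated member (0.04, SE 0.20). Of the genes that rose or fell in these lists, DNAJB9, DNAJB4 and DDIT3 alone also passed without the enzalutamide library.

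**Figure D4:**
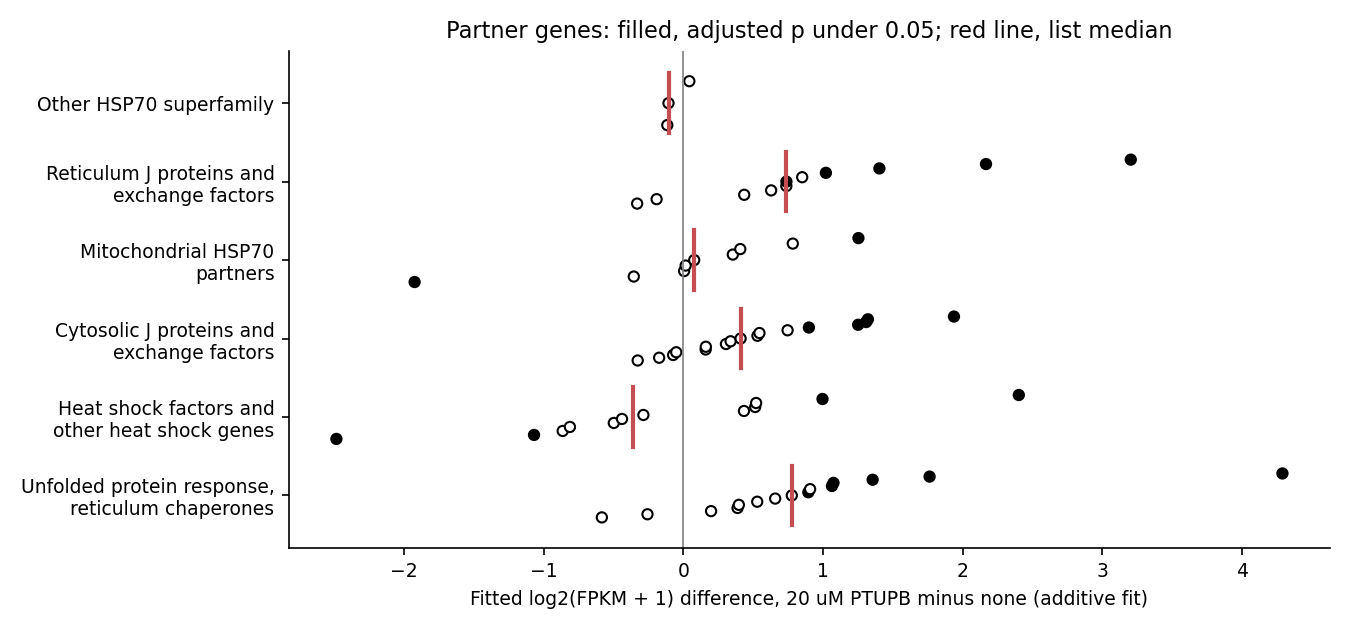
Fitted log2(FPKM + 1) difference at 20 uM PTUPB for each tested gene of 6 lists; 1 point is 1 gene, filled where the limma adjusted p was under 0.05, and the red line is the list's median. The reticulum lists lie mostly to the right of 0 with medians of 0.74 and 0.78, and the heat shock list spreads to both sides with a median of -0.36.

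The genes whose pattern over the 6 libraries lay nearest to a member were found by the Euclidean distance of log2(FPKM + 1), centred per gene, among the 12960 genes. Nearest to HSPA5 were UPP1 (distance 0.603), DDIT3 (0.612), GADD45A (0.635), GEM (0.830) and H3Y1 (0.840). Each was low in the 4 libraries without 20 uM PTUPB and high in both with it, UPP1 going from 0.965 to 2.70 FPKM in the former to 40.2 and 44.9 in the latter. GEM and H3Y1 were at most 0.715 and 0.542 FPKM in the former. Their means reached 1 FPKM only through the 20 uM libraries, so their likeness to HSPA5 is not independent of the filter. Nearest to HSPA8 were PIK3R1 (distance 0.0615), DPP3 (0.137), TELO2 (0.156), PSD4 (0.160) and PASK (0.210). PIK3R1 was at 4.96 to 6.02 FPKM in the 4 libraries and at 1.62 and 0.891 at 20 uM without and with enzalutamide.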

How the data were processed

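RNA-seq of 6 libraries of C4-2B MDVR cells, 1 per group, was deposited by the authors as a single table of FPKM for 58735 genes. The submitters' processing notes name HISAT and Cufflinks, without versions, and the genome build and the strand setting are not given in the sources used here. Identifiers were matched to GENCODE 29 (58735 matched, 0 unmatched). FPKM times exon length gave whole fragments for 100% of values above 0, within 0.05 fragments, and these give the depths and the 95% Wilson intervals.

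Genes with a mean of 1 FPKM or more (12960) were fitted on log2(FPKM + 1) by limma (version 3.58.1, R version 4.3.3, variance trended on intensity), PTUPB at 3 levels plus enzalutamide, two-sided, with Benjamini-Hochberg adjustment over all these genes at 0.05. A fold on that scale understates the change of low genes. Differences between 2 libraries have no test and are counted at log2 1. Each group being 1 library, p-values measure departures from additivity only.

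The members and the lists were chosen with earlier results of these data known. Named genes are the members, the 4 genes of each list (or fewer) whose fitted 20 uM effect was greatest, HSF1, XBP1, ATF4, ATF6 and DDIT3, and the 5 genes nearest HSPA5 and HSPA8, and genes that complete a count were named as well. Alternatives were TPM, total fragments, pseudocount 0.1, no filter, no trend, limma-voom on recovered fragments and each library left out. The fit was also run on simulated counts that held effects of 20 uM PTUPB only. Those counts had no departure from additivity, so the run does not check the error that the p-values measure. Other steps used Python 3.11.15, numpy 2.4.6, pandas 2.3.3, scipy 1.17.1 and matplotlib 3.10.9.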

Additional observations from a re-analysis of the deposited data

Results flagged for a closer look

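Opposite signs in the paired differences of 2 libraries drew attention to 6 members, and each value is the second log2(FPKM + 1) difference minus the first. For 20 uM PTUPB without and with enzalutamide, HSPA4 differed by 0.98 (-0.26 and 0.73) and HSPH1 by 0.58 (-0.44 and 0.14). For enzalutamide at 0 and 20 uM PTUPB, the difference was 1.98 for HSPA1B (-0.29 and 1.69), 0.98 for HSPA4 (-0.31 and 0.67), 0.63 for HSPA4L (-0.22 and 0.41) and 0.58 for HSPH1 (-0.42 and 0.16). The interaction term at 20 uM bears on these, and none passed (limma adjusted p = 0.17 for HSPA1B and for HSPA4, 0.21 for HSPA4L and 0.26 for HSPH1).

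The rest concern 10 uM PTUPB and were not tested. For 10 uM PTUPB without and with enzalutamide, HSPA1B differed by 0.42 (-0.39 and 0.04) and HSPA9 by 0.18 (-0.13 and 0.05). For enzalutamide at 0 and 10 uM PTUPB, HYOU1 differed by -0.51 (0.50 and -0.02) and HSPA1B by 0.42 (-0.29 and 0.14). With 1 library on each side, a sign near 0 has no replicate check.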

How the results depend on the processing

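Across the 12 alternatives the fitted 20 uM difference kept its sign for HSPA5, HSPA13, HYOU1, HSPA9, HSPA4L, HSPA8 and HSPA1B. In TPM the all-gene median was -0.15 for 10 uM, -0.23 for enzalutamide and 0.17 for 20 against 10 uM (in FPKM -0.033, 0.015 and 0.017), so part of each TPM value is that shift. For 20 against 10 uM, TPM called 2764 risers and 1905 fallers in place of 2132 and 2193. With no filter on level, 544 genes rose, 657 fell and 0 members fell at 20 uM; against 10 uM, 425 rose and 443 fell, with 3 members rising and 0 falling. For enzalutamide, TPM called 2 risers and 7 fallers and limma-voom 1 faller. With pseudocount 0.1, 2 members reached log2 1 when enzalutamide was added to 20 uM PTUPB.

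The other settings that kept all libraries reversed these signs, and the cause was not tested. TPM gave HSPA4L -0.075 at 10 uM and HSPH1 0.094 for 20 against 10 uM. For enzalutamide, TPM gave HSPA9 -0.11, HSPA4 -0.25 and HSPA4L -0.26, total fragments gave HSPA4 and HSPA4L -0.11 each, and HSPA4L was -0.018 with pseudocount 0.1 and -0.017 by limma-voom. The all-gene median for enzalutamide was -0.23 in TPM and -0.092 in total fragments.

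With each library left out in turn, 115 to 2685 genes rose and 209 to 2718 fell at 20 uM, with 2 to 6 members rising and 0 to 2 falling; HSPA4 ranged from -0.26 to 0.73 and HSPH1 from -0.41 to 0.10. For 20 against 10 uM, 351 to 2910 rose and 487 to 2681 fell, with 2 to 6 members rising and 1 to 2 falling, HSPA1B from -1.76 to 0.0045 and HSPH1 from -0.31 to 0.20. At 10 uM, HSPA9 ranged from -0.16 to 0.080, HSPA8 from -0.20 to 0.028, HSPA1B from -0.78 to 0.42, HSPA4L from -0.14 to 0.20 and HSPH1 from -0.27 to 0.089. For enzalutamide, HSPA1B ranged from -0.077 to 0.91, HSPA4 from -0.31 to 0.18 and HSPA4L from -0.20 to 0.12. Such fits have 1 residual degree of freedom.

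The reticulum share in DMSO, enzalutamide, 10 uM, 10 uM with enzalutamide, 20 uM and 20 uM with enzalutamide was 39.5%, 49.8%, 51.3%, 59.6%, 94.8% and 97.1% without HSPA1A and HSPA1B. It was 10.6%, 16.3%, 17.0%, 19.6%, 45.0% and 52.9% without HSPA5, and 34.3%, 44.3%, 46.2%, 53.5%, 91.9% and 95.1% in fragments. No paired analysis was possible because each group is 1 library and the labels give no replicate numbers.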

Other observations

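HSPA6, a heat-inducible HSP70 gene outside the 10 members, was named after its values were seen. It had 22 fragments in DMSO, 19 with enzalutamide, 8 at 10 uM PTUPB, 18 with both, 6 at 20 uM PTUPB and 168 at 20 uM with enzalutamide (3.86 FPKM there, at most 0.310 elsewhere). The last library stood above the other 5, and the gene did not reach the mean of 1 FPKM needed for the test. HSPA12B, a divergent member of the superfamily also named after its values were seen, had 60, 87, 49 and 14 fragments in the first 4 of these libraries and 0 in both 20 uM ones.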
